A study of Rattus norvegicus with 5 samples.

Results

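Heat shock chaperones are proteins that help other proteins fold, hold unfolded ones and carry them to assembly or degradation. The 10 chaperone genes described here were chosen by symbol and are 10 of the 30017 gene symbols counted in single cells of rat skin. They are the Hsp70 chaperones Hspa1b and Hspa8, the Hsp90 chaperones Hsp90aa1 and Hsp90ab1, the J-domain co-chaperones Dnajb1 and Dnaja1, the small heat shock protein Hspb1, the mitochondrial chaperonin genes Hspd1 and Hspe1, and the Hsp110 gene Hsph1. The data are 5 libraries of skin of Sprague-Dawley (SD) rats, 1 labelled control and 1 each from irradiated skin at 7, 14, 28 and 60 days (d). Per the study's methods, the rats were male, the shaved skin of the buttock received a single local electron beam exposure, and another piece of skin without radiation served as control. The labels give no strain, age or dose for single libraries, the methods do not describe the 60 d library, and the sources used here do not say whether animals were pooled or how rat skin was dissociated, and the digestion with collagenases, dispase and trypsin that the methods describe is given for human eyelid skin. Each group holds 1 library, so there was no test between groups, and an effect of irradiation cannot be told apart from one of animal, tissue dissociation or library preparation.

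Cells respond to unfolded proteins through heat shock factors, which bind heat shock elements in front of chaperone genes and raise their transcription within minutes. Hspa1b, Dnajb1, Hspb1, Hsph1 and Hsp90aa1 are known as the inducible side of this response, low at rest in many tissues and strongly raised by heat or toxic stress. Hspa8, Hsp90ab1, Dnaja1, Hspd1 and Hspe1 are known as the constitutive side, used by cells at all times. The comparison of the inducible with the constitutive genes in the same cells was the question put to each library. Several of these genes, like immediate early genes such as Fos and Jun, are also known to be raised by the enzymatic dissociation of tissue into single cells.

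The heat shock element is built of the short unit GAA and its reverse complement TTC in alternation. RefSeq promoters of build GRCr8, each 300 bases long with 250 before the start of the gene, were held for 8 of the 10 genes, and 5 of these had at least 3 alternating units with 2 bases between units (GAANNTTCNNGAA or TTCNNGAANNTTC, which are reverse complements of each other). The same motif stood in 0.798% of all 33469 promoters. The 5 are 4 constitutive genes, Hspa8, Hspd1, Hspe1 and Dnaja1, and 1 inducible gene, Hsph1. No match stood in the windows of Hsp90ab1, Hspb1 and Dnajb1, which says only that these letters are absent there. The stretches are shown because they are the sequence feature the response is known for. The motif is in capitals and all sequences run 5′ to 3′ on the strand of the gene.
Hspa8, 250 bases before the start, chr8:50080264-50080513, plus strand: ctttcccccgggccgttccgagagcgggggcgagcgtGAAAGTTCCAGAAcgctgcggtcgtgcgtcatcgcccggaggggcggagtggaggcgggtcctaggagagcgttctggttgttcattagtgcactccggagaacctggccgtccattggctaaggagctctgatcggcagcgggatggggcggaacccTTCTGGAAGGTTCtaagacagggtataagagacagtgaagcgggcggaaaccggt
Hsph1, 250 bases before the start, chr12:10427118-10427367, plus strand: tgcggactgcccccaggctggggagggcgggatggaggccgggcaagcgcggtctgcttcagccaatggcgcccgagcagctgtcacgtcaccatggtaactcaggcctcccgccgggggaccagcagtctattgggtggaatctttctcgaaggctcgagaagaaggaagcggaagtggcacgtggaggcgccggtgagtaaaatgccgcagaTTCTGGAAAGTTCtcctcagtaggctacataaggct
Hspe1, motif with flanks, chr9:64084256-64084285, plus strand: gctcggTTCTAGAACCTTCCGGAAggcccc
Hspd1, motif with flanks, chr9:64084256-64084285, minus strand: ggggccTTCCGGAAGGTTCTAGAAccgagc
Dnaja1, motif with flanks, chr5:60638407-60638431, plus strand: cgggcgGAACTTTCCAGAAcgctcg
Hspe1 and Hspd1, which encode the 2 subunits of the mitochondrial chaperonin, are transcribed in opposite directions and share a single run of 18 bases between their starts. In Hsph1 the run lies 36 to 24 bases before the start, and in Hspa8 the runs lie 213 to 201 and 55 to 43 bases before it. In Dnaja1 the run lies 9 to 21 bases after the start, inside the transcribed sequence.

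The libraries held 6012 to 12239 barcodes and 70073362 to 139566348 unique molecular identifiers (UMIs, each a tag of 1 captured RNA molecule). After filters 4370 to 11304 cells were kept, and 73.35% to 93.71% of these were given to a cell class by a gate on marker genes that uses no chaperone. Of 87 markers found, 86 were highest in their own class over the pooled libraries (Lyz2, a phagocyte marker, was higher in neutrophils). The cells were gated by these same markers, so this count is no independent check of the class names. The names stand for cells that are like that type. Any pair of libraries shared 11 to 41 barcodes, at most 0.382% of the smaller library. Levels are given as CPM, the UMIs of a gene per 1000000 UMIs of all cells of that class in that library, with 95% intervals that cover counting error only. UMIs of this 3′ assay are not scaled to transcript length. Ratios between genes are therefore compared here between libraries and between cell classes, and their absolute size is not read. The dermal cells that make matrix, the fibroblasts, numbered 3191 in control, 6630 (7 d), 63 (14 d), 480 (28 d) and 520 (60 d). Keratinocytes, which build the epidermis and the hair, numbered 4554, 1414, 2193, 4933 and 6546. Mural cells, endothelial cells, Schwann cells, mononuclear phagocytes, and T and NK cells gave further comparisons, from as few as 55 cells.

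Hsp90aa1, the inducible Hsp90 gene, was practically not counted under its own symbol. Over all barcodes its row held between 1 and 5 UMIs per library, 10 in all, against 1618651 for its constitutive partner Hsp90ab1. It was at 0 UMIs in most classes and libraries, and the pair cannot be compared here. The RefSeq table of build GRCr8 lists 16 pseudogenes named for Hsp90aa1, 23 for Hsp90ab1, 33 for Hspa8, 20 for Hspd1 and none for Hspa1b. Reads shared with such copies cannot be followed in these counts, and their part in the missing Hsp90aa1 UMIs was not tested. Whether reads of Hsp90aa1 were counted under another symbol was not tested either. Hspa1a, the near-identical copy of Hspa1b, has no row in the files, so values of Hspa1b may hold reads of both. The other 9 genes passed the filter of 20 CPM over the pooled libraries in fibroblasts and in keratinocytes.

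Hspa1b, the inducible Hsp70 that holds and refolds damaged proteins, had the widest range of ratios to control of the genes, from 0.263 to 12.3. In fibroblasts it stood at 1633 CPM in control, 4911 (7 d), 2681 (14 d), 5039 (28 d) and 4572 (60 d). All 4 irradiated libraries were above control, at ratios of 3.01 (95% interval 2.98 to 3.03), 1.64 (1.55 to 1.74), 3.08 (3.03 to 3.14) and 2.80 (2.75 to 2.85). In keratinocytes the order differed, with 1033 CPM in control, 1476 (7 d), 272 (14 d), 617 (28 d) and 951 (60 d). The 14 d library was lowest, at 0.263 of control (0.259 to 0.268), and the 28 d library was at 0.597 of control (0.590 to 0.604). A gene was called higher or lower at a fold of at least 1.5 with an interval of the ratio that excludes 1. By this rule Hspa1b was higher in 4 of 4 irradiated libraries in fibroblasts and lower in 2 of 4 in keratinocytes.

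Over the 7 classes Hspa1b was higher than control in 18 of 27 comparisons and lower in 2, both of them in keratinocytes. Without the 60 d library it was higher in 14 of 21 comparisons, and without the 14 d library it was higher in 16 of 20 and lower in 1. All comparisons of a class share its control library and so are not independent. In endothelial cells, which line vessels, the levels were 1571 CPM in control, 3410 (7 d), 2617 (14 d) and 3358 (28 d). Mural cells, the pericytes and smooth muscle of vessels, had 682, 1251, 944, 1612 and 1016 CPM from control to 60 d. Schwann cells of nerve had 807, 2004, 1015, 1836 and 2435 CPM. In these vessel and nerve classes, as in fibroblasts, control was the lowest library.

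Mononuclear phagocytes had 159 CPM of Hspa1b in control, 1129 (7 d), 112 (14 d), 686 (28 d) and 1951 (60 d). T and NK cells had 145, 998, 148, 432 and 807 CPM. In both immune classes the 7 d, 28 d and 60 d libraries were far above control, up to 12.3-fold (10.7 to 14.2) in mononuclear phagocytes at 60 d, whereas the 14 d library lay near control at 0.70-fold and 1.03-fold. RNA of other cells was present in these gates. In mononuclear phagocytes all 8 fibroblast markers were seen in control, 7 d and 28 d, 5 of them were at 0 at 14 d and 2 at 60 d, and their summed level ran from 17.0 CPM at 14 d to 2407 CPM at 7 d. In T and NK cells 1 of the 8 was missing in control, 2 were at 0 at 14 d and 2 at 60 d, and the summed level ran from 19.3 to 2410 CPM. Had all fibroblast and keratinocyte marker UMIs there come with a like share of the chaperone RNA of those cells, they would bring 51.7 CPM of Hspa1b into control mononuclear phagocytes, 179 CPM at 7 d and 40.0 CPM at 60 d. For T and NK cells the same bound is 59.4 CPM in control, 190 CPM at 7 d and 46.0 CPM at 60 d, below the measured level in each.

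**Figure D1:**
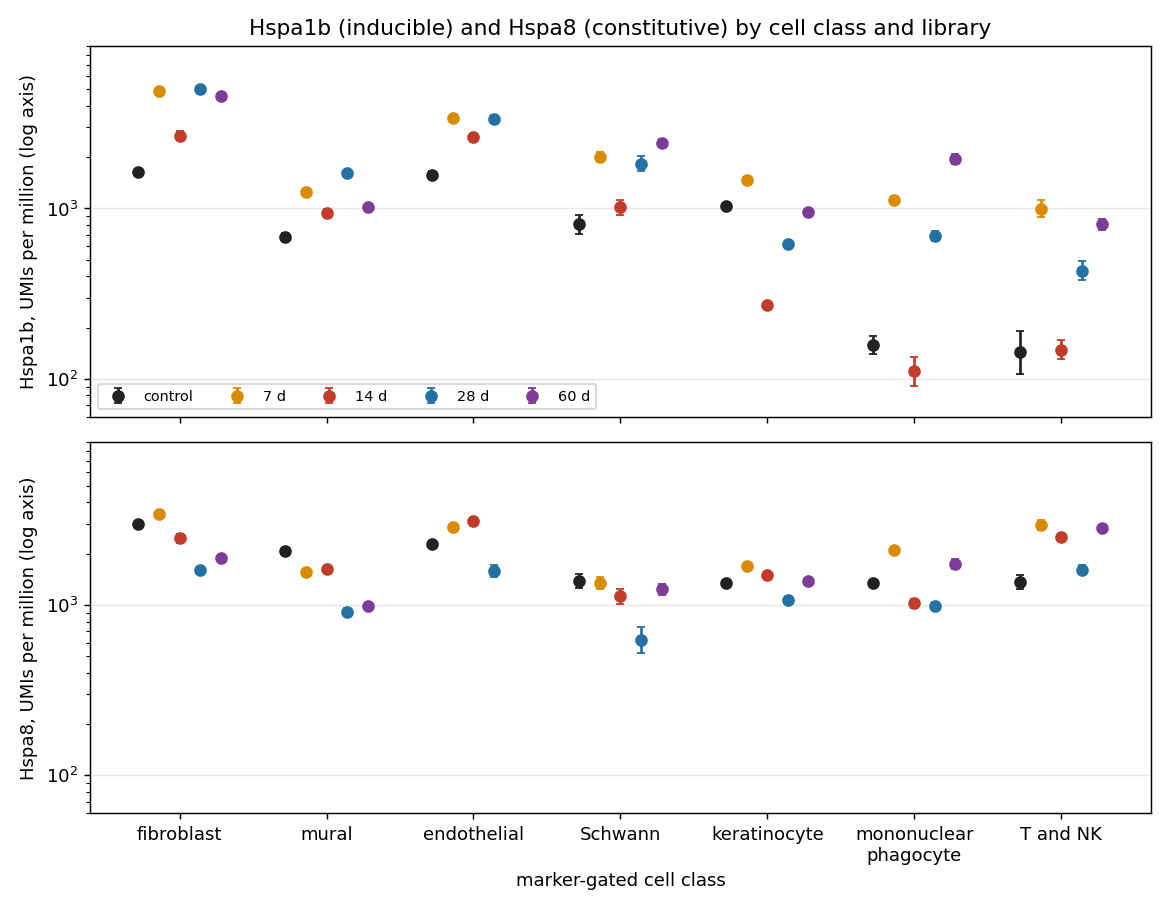
Level of Hspa1b (upper panel) and Hspa8 (lower panel) in CPM on a log axis, with 1 point per library in each of 7 marker-gated cell classes and bars for the exact Poisson 95% interval. In fibroblasts Hspa1b rose from 1633 in control to between 2681 and 5039 in the irradiated libraries, while in keratinocytes the 14 d library stood lowest at 272.

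Hspa8, the constitutive Hsp70 that also strips clathrin from vesicles, varied less and often in the other direction. In fibroblasts it stood at 3006 CPM in control, 3410 (7 d), 2465 (14 d), 1602 (28 d) and 1881 (60 d). The 28 d and 60 d libraries were lower than control by the rule, at 0.53 and 0.63 of it. In keratinocytes it stayed between 1066 and 1685 CPM, against 1346 in control, and was never past the fold. In mural cells it fell from 2086 CPM in control to 913 at 28 d and 990 at 60 d. Over all classes it was higher in 4 and lower in 5 of 27 comparisons, and each of the 4 was in an immune class. Without the 60 d library it was lower in 3 of 21.

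The ratio of the pair within the same cells does not depend on how counts are scaled. In fibroblasts there were 54.3 Hspa1b UMIs per 100 Hspa8 UMIs in control, 144 (7 d), 109 (14 d), 315 (28 d) and 243 (60 d). The 28 d ratio was 5.79 times that of control (approximate log-normal interval 5.59 to 6.0). The ratio was also highest at 28 d in mural cells, where it rose from 32.7 to 176, in endothelial cells, from 68.9 to 212, and in Schwann cells, from 58.2 to 293. In keratinocytes it was 76.8 in control, 87.6 (7 d), 18.2 (14 d), 57.9 (28 d) and 69.0 (60 d), so control and 7 d lay above the other libraries. Mononuclear phagocytes had 11.9, 54.0, 10.9, 69.6 and 113 per 100, and T and NK cells 10.6, 33.7, 5.89, 26.7 and 28.4. At 14 d the ratio in T and NK cells was 0.557 of control (approximate interval 0.404 to 0.768) although the level of Hspa1b was not, since Hspa8 was 1.84-fold higher there.

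**Figure D2:**
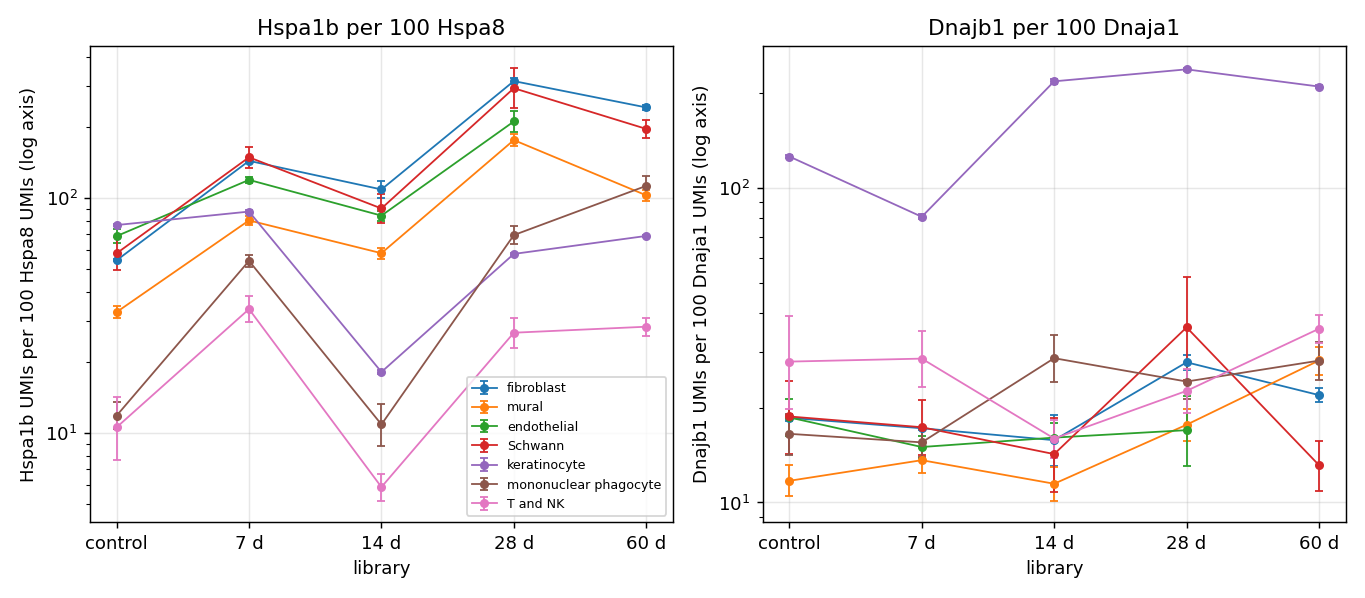
UMIs of the inducible gene per 100 UMIs of its constitutive partner, Hspa1b over Hspa8 on the left and Dnajb1 over Dnaja1 on the right, on log axes by library, with 1 line per cell class and exact Clopper-Pearson 95% intervals. The left ratio peaked at 28 d in fibroblasts (315), Schwann, endothelial and mural cells and was lowest at 14 d in keratinocytes (18.2), and the right ratio was far higher in keratinocytes than in any other class.

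Immediate early genes are given beside Hspa1b. The summed level of 18 such genes in fibroblasts was 16260 CPM in control, 43300 (7 d), 28270 (14 d), 47780 (28 d) and 53440 (60 d). In keratinocytes it was 26750, 26710, 6291, 16260 and 21850 CPM, with the same library lowest as for Hspa1b. By the rule 15 of the 18 were higher and none lower in fibroblasts at 7 d, 28 d and 60 d. At 14 d 11 were higher and 1 lower. Of all genes tested in fibroblasts, 7.94%, 11.3%, 13.5% and 15.3% were higher from 7 d to 60 d. The shares lower were 4.62%, 16.0%, 14.8% and 16.3%. In keratinocytes 1 was higher and 2 were lower at 7 d. All 18 were lower at 14 d, with a median log2 ratio of -2.02, 10 were lower at 28 d and 5 at 60 d. None was higher in the last 3 libraries. Of all genes tested in keratinocytes, 7.66%, 33.2%, 17.1% and 20.4% were lower from 7 d to 60 d. The shares higher were 12.0%, 16.3%, 10.1% and 8.99%. The counts lower at 7 d and 60 d lie near these shares. Fos, which forms the AP-1 transcription factor with Jun, ran from 1575 CPM in control to 9290 CPM at 60 d in fibroblasts, and from 3444 CPM in control to 696 CPM at 14 d in keratinocytes. Egr1 ran from 927 to 3704 CPM and from 1440 to 157 CPM over the same libraries, and Atf3 from 1194 to 2560 CPM and from 4039 to 824 CPM. In mural cells at 7 d, where Hspa1b was 1.83-fold higher, the sum was 26480 CPM against 24640 CPM in control. There 2 of the 18 were higher and 1 lower, beside 5.56% and 4.16% of all genes. In Schwann cells at 14 d, where Hspa1b was at 1.26-fold, 14 were higher and none lower, beside 7.97% and 14.1% of all genes. The sum was 33770 CPM against 11930 CPM. The part of immediate early induction, and of dissociation, in the chaperone levels was not tested.

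**Figure D3:**
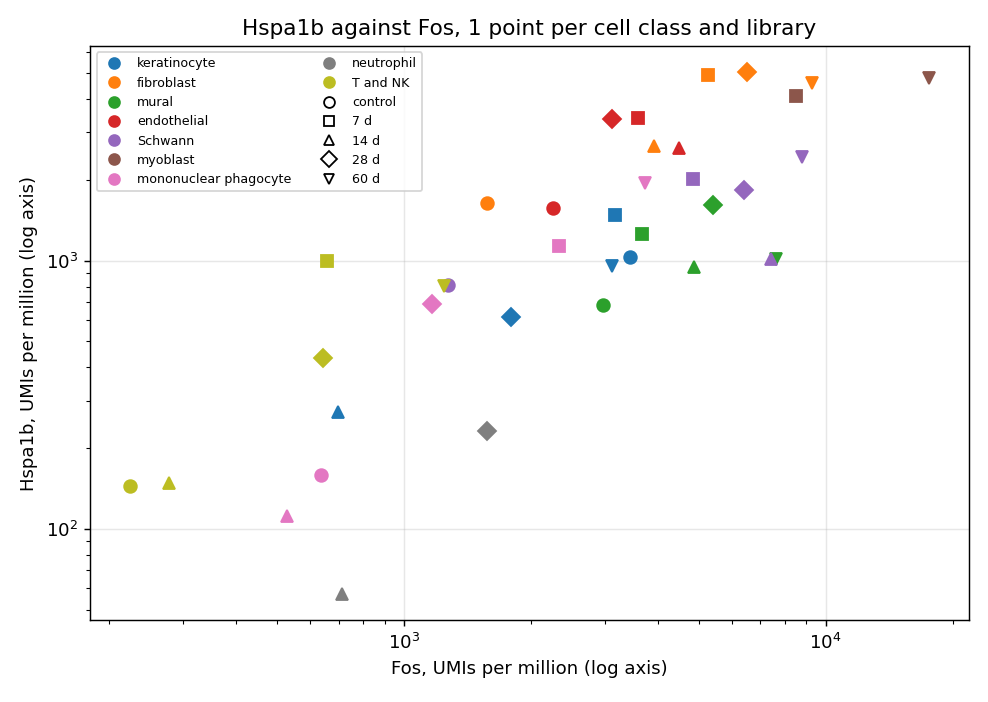
Level of Hspa1b against that of Fos, both in CPM on log axes, with 1 point for each of 38 combinations of cell class (colour) and library (symbol). The points rise together (Pearson r 0.827 on log2 levels), from neutrophils at 14 d and T and NK cells of control at the lower left to fibroblasts and myoblasts of irradiated libraries at the upper right.

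Over the 38 combinations of class and library with at least 50 cells, Jun was among the genes most like Hspa1b in pattern (Pearson r 0.850 on log2 levels, of 2962 genes). The transcription factor gene Klf4 (0.845), Fos (0.827) and Zfp36l1 (0.824), which encodes an RNA-binding protein, were also among them. The genes most like Hspa8 were Ptbp1 (0.786), a splicing regulator, Sec61g (0.785) of the protein translocation channel, Sdf2 (0.784), LOC108348144 (0.771) and Krtcap2 (0.768). These correlations are descriptions, since the points share libraries, depth and cell classes. Among the members themselves, Hsp90ab1 and Hspd1 were most alike (0.902), followed by Dnaja1 and Hsph1 (0.866), and Hspa1b was more like Hspb1 (0.774) than like Hspe1 (0.066).

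The 9 counted genes were next counted by class. In fibroblasts at 7 d, 6 of the 9 were higher than control and none lower, while 7.94% of all 4458 genes tested were higher and 4.62% lower. The 6 were Hspa1b (3.01-fold), Hsph1 (2.31-fold), Hspb1 (1.90-fold), Dnaja1 (1.67-fold), Dnajb1 (1.55-fold) and Hsp90ab1 (1.51-fold), of which 4 are inducible and 2 constitutive. At 14 d, in only 63 fibroblasts, Hspa1b was higher and Hspe1 lower, against a background of 11.3% higher and 16.0% lower. At 28 d 3 were higher (Hspa1b, Dnajb1 and Hsph1) and 2 lower (Hspa8 and Hspe1), against 13.5% and 14.8%. At 60 d Hspa1b alone was higher and Hspa8 and Hspe1 were lower, against 15.3% and 16.3%. From 7 d to 60 d the median log2 ratios over the 9 were 0.63, -0.09, 0.37 and 0.04, beside 0.02, -0.10, -0.01 and 0.06 over all genes tested. Over the 4 inducible genes counted they were 1.07, -0.08, 0.84 and 0.34, and over the 5 constitutive genes 0.25, -0.17, 0.05 and -0.23.

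In keratinocytes at 7 d, Hspb1 (2.40-fold) and Hsph1 (1.90-fold) were higher and Dnajb1 was lower, with 12.0% of 4084 genes higher and 7.66% lower. At 14 d none of the 9 was higher and 5 were lower, Hspa1b at 0.26, Dnaja1 at 0.31, Hspb1 at 0.44, Hsph1 at 0.50 and Dnajb1 at 0.54 of control, while 16.3% of all genes were higher and 33.2% lower. Hspa8 (1.11-fold), Hsp90ab1 (1.14-fold), Hspd1 (1.16-fold) and Hspe1 (0.97-fold) stayed near control in the same cells. At 28 d 4 were lower (Hspb1, Hspe1, Dnaja1 and Hspa1b) and none higher, against 17.1% and 10.1%. At 60 d Hspb1 and Dnaja1 were lower and none was higher, against 20.4% and 8.99%. The median depth of these keratinocytes was 10960 UMIs in control, 13390 (7 d), 23510 (14 d), 10690 (28 d) and 15660 (60 d), and its part in the low 14 d values was not tested.

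In the immune classes most of the 9 were higher at 7 d and 60 d. Mononuclear phagocytes had 7 higher and none lower at 7 d (background 13.3% higher and 11.2% lower) and 6 higher and none lower at 60 d (16.8% and 20.6%). T and NK cells had 8 higher at 7 d (11.6% and 3.88%) and 7 higher and 1 lower at 60 d (9.48% and 19.9%). At 28 d the counts were 3 higher and 1 lower in mononuclear phagocytes (18.9% and 19.8%) and 4 higher and 1 lower in T and NK cells (13.5% and 13.5%). At 14 d they were 1 higher and 1 lower (23.7% and 17.7%), and 3 higher and 1 lower (15.6% and 6.80%). Hspb1 is one of the higher genes of both classes at 7 d and of mononuclear phagocytes at 60 d, and it is the lower gene of T and NK cells at 14, 28 and 60 d. Its carry-over bound was 35.2% of the level in mononuclear phagocytes at 7 d, and 58.8% at 7 d and 44.6% at 60 d in T and NK cells. Of the 18 immediate early genes, 15 were higher in mononuclear phagocytes at 7 d and 60 d but 5 at 14 d. The control T and NK class rests on 70 cells and the 7 d class on 55.

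In vessel and nerve cells 0 to 2 of the 9 were higher in any library. At 28 d mural cells had 1 higher and 2 lower (background 11.3% and 19.2%), endothelial cells 2 and 2 (16.7% and 16.1%) and Schwann cells 2 and 3 (8.88% and 15.4%). At 7 d the counts were 1 and 0 (5.56% and 4.16%), 2 and 0 (11.0% and 9.14%) and 2 and 1 (6.15% and 6.21%). Hspa1b was among the higher genes in all 6 of these comparisons. At 14 d they were 0 and 1 in mural cells (7.50% and 11.9%), 2 and 1 in endothelial cells (14.4% and 18.3%) and 0 and 1 in Schwann cells (7.97% and 14.1%), and at 60 d Schwann cells had 1 and 0 (8.39% and 16.3%). In mural cells at 60 d none was higher and 4 were lower (13.3% and 21.1%), namely Hspa8, Dnaja1, Hspe1 and Hsph1.

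**Figure D4:**
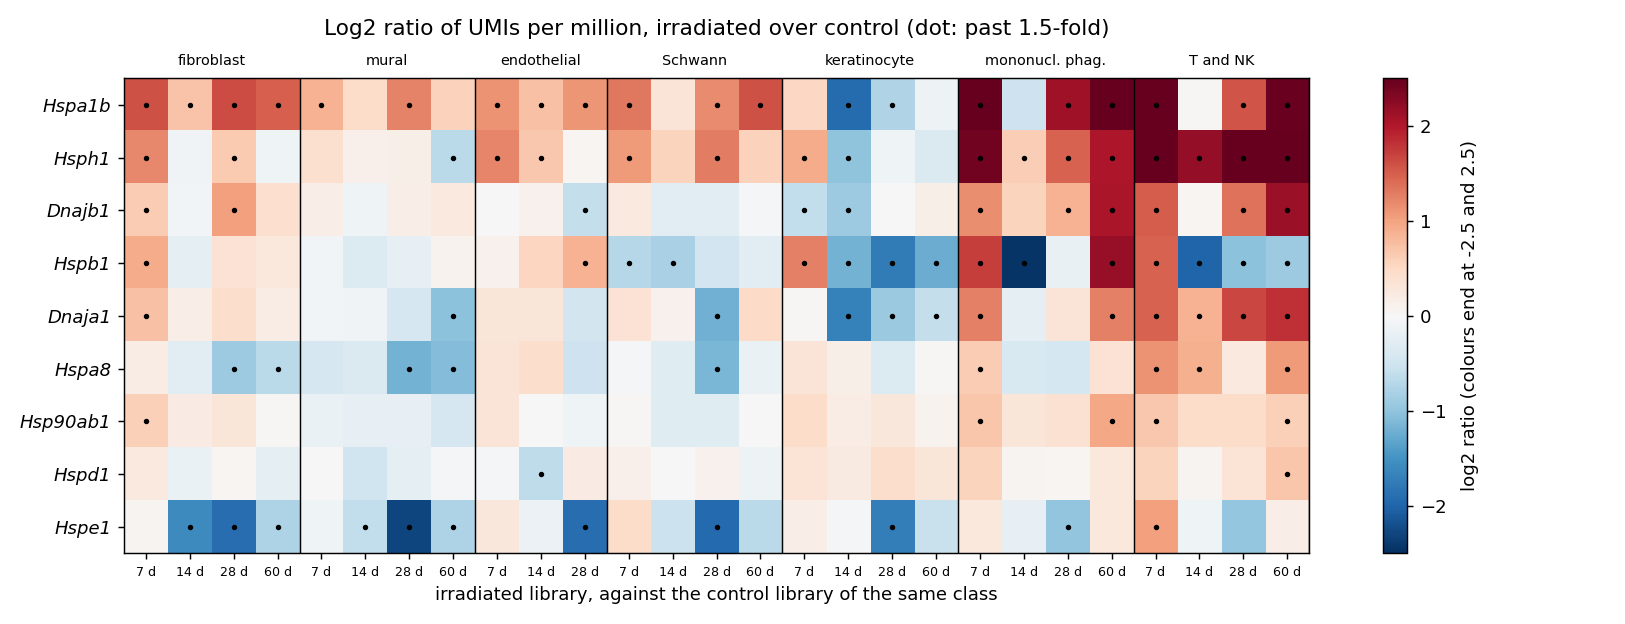
Log2 ratio of the level in each irradiated library to the control library of the same class (colour, ending at -2.5 and 2.5), for 9 chaperone genes in rows and 27 comparisons in columns, with a dot where the ratio is past 1.5-fold and its counting interval excludes 1. Hspa1b and Hsph1 in the upper rows are mostly red outside keratinocytes, and Hspe1 in the lowest row is blue in the 28 d column of each class.

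Hsph1, an Hsp110 that reloads Hsp70 with ATP by releasing its ADP, was the other gene that was higher than control in most comparisons. In fibroblasts it stood at 348 CPM in control, 804 (7 d), 327 (14 d), 544 (28 d) and 324 (60 d). In T and NK cells it stood at 47.2, 427, 217, 347 and 392 CPM, so that here the 14 d library too was above control, at 4.58-fold (2.79 to 8.11). The control level of Hsph1 in this class comes from 70 cells, and all its T and NK ratios share that low value. Its carry-over bound in the 14 d T and NK cells was 1.0 CPM. In mononuclear phagocytes it stood at 79.7 CPM in control and 423, 122, 223 and 325 CPM after irradiation, in the order of time. In keratinocytes it ranged from 34.9 CPM at 14 d to 134 CPM at 7 d. The 7 d call was lost with a stricter class margin (log2 ratio 0.23 in place of 0.92) and where 2-fold was required. The 14 d call was lost with equal weight per cell (-0.19 in place of -1.01). Over 27 comparisons it was higher in 15 and lower in 2. It was higher in 13 of 21 without the 60 d library and in 12 of 20 without the 14 d library, and lower in 1 in both cases.

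The J-domain proteins, which deliver unfolded clients to Hsp70 and start its ATP cycle, were divided by cell class. Dnajb1, the inducible one, was highest in keratinocytes, at 1124 CPM in control, 733 (7 d), 602 (14 d), 1121 (28 d) and 1240 (60 d), and between 28.6 and 617 CPM in every other class and library. Dnaja1, the constitutive one, was lower in keratinocytes than in fibroblasts in each library, with 892, 905, 276, 470 and 590 CPM against 1627, 2715, 1836, 2210 and 1848 CPM. Keratinocytes thus held 126 Dnajb1 UMIs per 100 Dnaja1 UMIs in control, 81.0 (7 d), 218 (14 d), 238 (28 d) and 210 (60 d). In fibroblasts the same ratio stayed between 15.8 and 27.9, and in the mural, endothelial, Schwann and lymphoid or phagocytic classes between 11.5 and 36.0. In fibroblasts the Dnajb1 to Dnaja1 ratio was 0.93 of control at 7 d, when the Hspa1b to Hspa8 ratio was 2.65 of control. Both J-domain genes were higher there, Dnajb1 1.55-fold and Dnaja1 1.67-fold. In keratinocytes at 14 d both were lower, at 0.54 and 0.31 of control, while their ratio was above control. The ratio of this pair thus also follows changes of Dnaja1. Dnajb1 was higher in both immune classes at 60 d, 4.12-fold in mononuclear phagocytes and 4.49-fold in T and NK cells. Without the class margin the log2 ratio in mononuclear phagocytes was 1.38 in place of 2.04. Dnaja1 was higher in T and NK cells of all 4 irradiated libraries, with 1346, 884, 1532 and 1707 CPM against 484 CPM in control, and in mononuclear phagocytes at 7 d (1864 CPM) and 60 d (1885 CPM) against 782 CPM. In mural cells Dnaja1 was lowest at 60 d, at 638 CPM against 1296 CPM in control, and in Schwann cells at 28 d, at 511 CPM against 1176 CPM.

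Hspb1, a small heat shock protein that binds unfolded proteins and actin, was highest in vessel cells among the classes of control. Endothelial cells had 2574 CPM in control, 2766 (7 d), 3721 (14 d) and 4713 (28 d), and mural cells stayed between 1742 and 2338 CPM. Keratinocytes went from 1277 CPM in control up to 3063 (7 d) and then to 564 (14 d), 382 (28 d) and 544 (60 d). The later 3 libraries all lay below control, at 0.30 to 0.44 of it. Fibroblasts had 925, 1758, 794, 1192 and 1106 CPM. Schwann cells had 1483 CPM in control and less in each irradiated library, 847 to 1215 CPM. In T and NK cells Hspb1 was low, from 22.9 CPM at 14 d to 255 CPM at 7 d, and the carry-over bound came to 44.6% to 65.5% of the level, so little can be read from it there. In mononuclear phagocytes the bound was 43.4% of the level in control, 35.2% at 7 d and 52.3% at 14 d, but 16.7% at 28 d and 3.68% at 60 d, when the level was 495 CPM.

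Hsp90ab1, the constitutive Hsp90 that matures kinases and steroid receptors, varied least in its ratio to control apart from Hspd1, from 0.75 to 1.95. It ranged from 2895 to 3978 CPM in keratinocytes, from 2103 to 3178 CPM in fibroblasts and from 1858 to 2483 CPM in mural cells. T and NK cells had the most in each library, 3347 CPM in control and 4582 to 5305 CPM after irradiation. It was past the fold upward in 5 of 27 comparisons, in fibroblasts at 7 d and in both immune classes at 7 d and 60 d, and downward in none. Without the 60 d library 3 of 21 were higher.

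Hspd1 and Hspe1 form the ring and the lid of the mitochondrial chaperonin and share the promoter stretch printed above, yet their levels parted at 28 d. Hspd1 stayed between 110 and 154 CPM in fibroblasts and between 207 and 280 CPM in keratinocytes, and was past the fold in 2 of 27 comparisons, 1 in each direction (endothelial cells lower at 14 d, T and NK cells higher at 60 d), so that leaving out either library leaves 1. Hspe1 went in fibroblasts from 45.5 CPM in control to 48.0 (7 d), 15.1 (14 d), 12.2 (28 d) and 26.5 (60 d), and in keratinocytes from 83.5 to 93.9, 80.6, 25.2 and 56.5 CPM. At 28 d Hspe1 was at 0.205 to 0.510 of control over the 7 classes and past the fold in 6 of them, the exception being T and NK cells at 0.51 (0.24 to 1.07). Hspd1 at 28 d was between 0.85 and 1.35 of control. Hspa8 was lower at 28 d in fibroblasts, mural cells and Schwann cells. The mitochondrial share of UMIs was higher at 28 d than in control in each class, for example 4.25% against 2.61% in fibroblasts, 5.79% against 3.90% in keratinocytes and 9.68% against 5.78% in mural cells. Its part in these lower values was not tested.

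Keratinocytes were also divided by their keratin UMIs. Suprabasal cells had a larger count of Krt1 or Krt10 than of any of Krt5, Krt14 and Krt15, and all others were taken as basal. Hspb1 was higher in the suprabasal cells of each library, by 1.33-fold to 1.71-fold, from 1157 CPM in basal to 1684 CPM in suprabasal cells of control. Dnaja1 was lower there in each library, at 0.43 to 0.60 of the basal level, and Hsph1 at 0.56 to 0.91. Hspa1b was 1.19-fold higher in suprabasal cells of control (1182 against 989 CPM) but at 0.79 to 0.93 of the basal level in the irradiated libraries. The low 14 d level of Hspa1b was present in both layers, at 279 CPM in basal and 261 CPM in suprabasal cells. The suprabasal cells at 7 d numbered only 48.

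For shares of cells with a UMI, cells were first thinned to 1000 UMIs each. Hspa1b was seen in 52.1% (50.3% to 53.9%) of control fibroblasts, 82.1% (7 d), 65.5% with an interval of 51.9% to 77.5% (14 d), 81.3% (28 d) and 75.5% (60 d). Without thinning the shares were 82.9%, 96.6%, 82.5%, 90.2% and 86.9%. In keratinocytes the thinned shares were 49.9%, 65.0%, 22.0%, 37.1% and 44.4%, and the unthinned ones 93.8%, 98.5%, 83.6%, 84.2% and 93.6%. Neutrophils, which held the least Hspa1b, gave 4.17% (0.51% to 14.3%) at 14 d and 9.38% (1.98% to 25.0%) at 28 d, at median depths of 1811 and 1077 UMIs against 6387 and 4800 in fibroblasts. The thinned share in mononuclear phagocytes was 4.24% at 14 d and in T and NK cells 8.52%. Both lie within the wide intervals of neutrophils, as does the 8.57% of control T and NK cells. Whether neutrophils express Hspa1b was not tested, so these shares alone show neither expression nor its absence. The carry-over bound was 5.64 of 112 CPM and 7.86 of 148 CPM in these 14 d classes. It counts fibroblast and keratinocyte RNA only, from markers in cells that the gate kept for few markers of other classes. Carry-over from further classes was not tested. At 7 d those classes reached 40.5% and 40.0%, and at 60 d 43.8% and 24.8%. In mononuclear phagocytes at 28 d the share was 18.7%, inside the interval of control (15.7%, 11.4% to 20.9%), although the summed level was 4.32-fold higher. The share of fibroblasts with Hsph1 was 23.7% in control, 44.5% (7 d), 22.4% (14 d), 30.8% (28 d) and 22.7% (60 d). In T and NK cells it was 1.43% in control and between 15.1% and 23.6% in the irradiated libraries. That control share is of only 70 cells, so very few cells with a UMI stand behind it. Thinning left out 139 of 3191 control fibroblasts and 285 of 6630 at 7 d, and 23 of 55 neutrophils at 28 d.

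Hspa1b was also spread over more of the fibroblasts after irradiation. In thinned cells the tenth of fibroblasts with most Hspa1b held 49.4% of its UMIs in control, 31.2% (7 d), 42.5% (14 d), 31.3% (28 d) and 32.2% (60 d), and the same share for Hspa8 was between 27.7% and 33.8%. A lower level alone raises such a share in counts this small. In mononuclear phagocytes the tenth with most held 75% in control, 63.2% (7 d), 100% (14 d), 89% (28 d) and 60.4% (60 d), so at 28 d most Hspa1b UMIs lay in few of the cells.

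Within fibroblasts the inducible genes were found in the same cells. Thinned fibroblasts with a Hspa1b UMI had 3.29 times as much Hsph1 per cell as those without in control (562 against 171 CPM), and 4.85, 1.97, 4.21 and 4.64 times as much at 7, 14, 28 and 60 d. For Dnajb1 the fold was 2.59 to 6.32 over the libraries, for Hspb1 2.63 to 6.77 and for Dnaja1 1.20 to 4.87. Fos was 3.17 to 5.77 times as high and Jun 2.07 to 4.01 times in the same cells, so the contrast was not particular to chaperones. Hspa8 was 1.43 to 3.58 times as high and Hsp90ab1 1.22 to 2.05 times, while Hspd1 was 0.39 to 1.76 times as high. The 14 d values rest on 38 cells with and 20 without a Hspa1b UMI. Their intervals include 1 for Hsph1 (0.63 to 8.17), Dnajb1 (0.93 to 270) and Dnaja1 (0.76 to 1.95), but not for Hspb1 (1.32 to 5.82). In keratinocytes Hsph1 was 1.95 times as high in control and 5.15 (3.21 to 8.75), 2.05, 2.03 and 1.61 times from 7 d to 60 d, so the 7 d value was at the level of fibroblasts. The other folds were smaller for most genes, with Hspa8 at 1.08 to 1.24, Hsp90ab1 at 0.96 to 1.14, Dnajb1 at 1.30 to 1.47 and Hspb1 at 1.81 to 2.98. These are descriptions over the cells of single libraries.

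**Figure D5:**
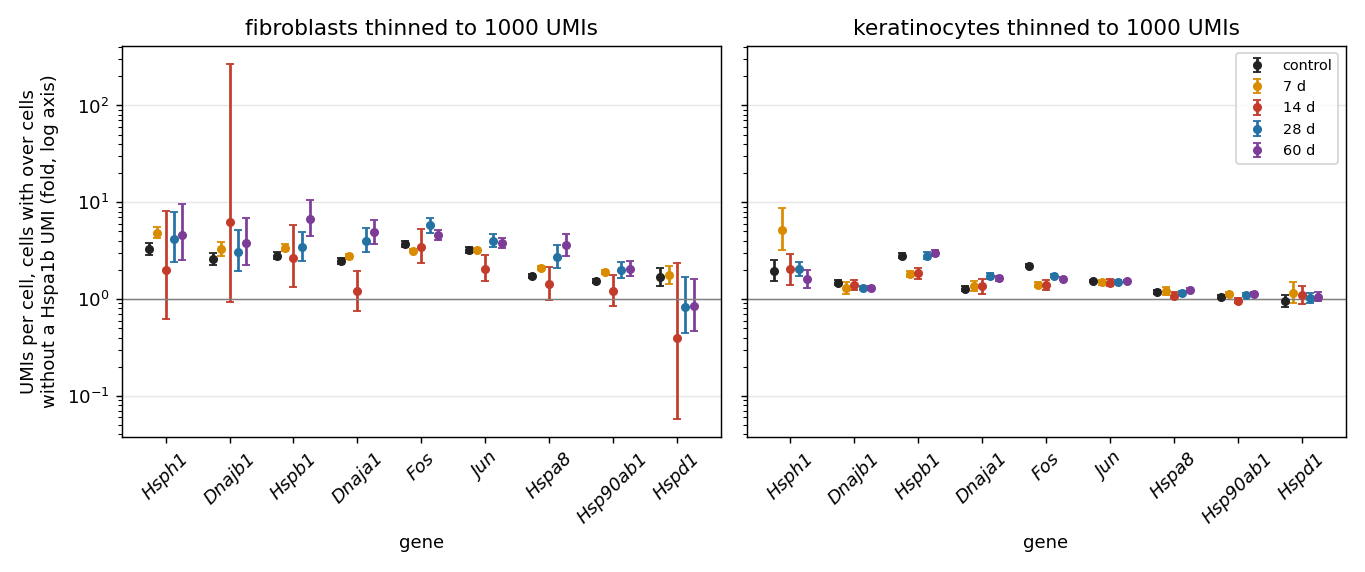
UMIs per cell of 9 genes in cells with over cells without a Hspa1b UMI, as a fold on a log axis, after thinning each cell to 1000 UMIs, for fibroblasts on the left and keratinocytes on the right, with 1 point per library and intervals for counting error. In fibroblasts of control, 7 d, 28 d and 60 d Hsph1 lay between 3.29 and 4.85, and in keratinocytes it lay between 1.61 and 5.15. In keratinocytes Hspa8, Hsp90ab1 and Hspd1 lay near 1.

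Other chaperone genes were taken from lists chosen for their function. Their counts in fibroblasts stand beside the shares of all genes given above, 7.94%, 11.3%, 13.5% and 15.3% higher and 4.62%, 16.0%, 14.8% and 16.3% lower from 7 d to 60 d. Of the 8 subunits of the TRiC chaperonin, which folds actin and tubulin, none was past the fold at 7, 14 and 28 d and 1 was lower at 60 d (Tcp1 at 0.66 of control). Of 18 tested genes of the endoplasmic reticulum chaperones and unfolded protein response, 1 was higher and 0 lower at 7 d (Ddit3, 2.35-fold), 1 and 3 at 14 d, 0 and 0 at 28 d and 1 and 0 at 60 d (Herpud1, 1.77-fold). The medians of this list were between -0.04 and 0.28 on the log2 scale, beside -0.10 to 0.06 over all genes tested. Of 14 tested Hsp90 co-chaperones and Hsp70 cofactors, 2 were higher at 7 d, led by Fkbp5 (2.01-fold), 1 at 28 d (Bag3, 733 against 463 CPM) and 2 at 60 d, led by Fkbp4 (1.79-fold), and at 14 d 1 was higher and 4 lower. Of 8 tested further J-domain genes 1 was higher and 0 lower at 7 d (Dnajb4, 1.56-fold), 1 and 1 at 14 d (Dnajc7, 1.77-fold, and Dnaja2, 0.51 of control), 0 and 0 at 28 d and 0 and 1 at 60 d (Dnajb6, 0.55 of control). Among 4 tested further Hsp70 and Hsp110 genes none was higher, and Hspa9, the mitochondrial Hsp70, was at 0.67, 0.50, 0.53 and 0.38 of control. Of 3 tested further small heat shock proteins, Cryab, an abundant crystallin of muscle and lens, was lower in all 4 libraries, with 815 CPM in control, 473 (7 d), 327 (14 d), 424 (28 d) and 80.9 (60 d). Of 4 heat shock factor genes only Hsbp1, a binding protein of the factors, passed the filter, between 62.7 and 104 CPM.

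In keratinocytes the same lists are read beside 12.0%, 16.3%, 10.1% and 8.99% of all genes higher and 7.66%, 33.2%, 17.1% and 20.4% lower from 7 d to 60 d. Hspb8, the only further small heat shock protein tested, stood at 147 CPM in control, 187 (7 d), 59.5 (14 d), 62.6 (28 d) and 57.1 (60 d), an order close to that of Hspb1. Bag3, a cofactor that joins Hsp70 to the small heat shock proteins, was at 0.34 of control at 14 d (50.1 against 148 CPM), 0.66 at 28 d and 0.52 at 60 d. Dnajb4 was at 0.21 of control at 14 d and Hspa13 at 0.26. Cdc37, which brings kinases to Hsp90, was instead 2.10-fold higher at 14 d and 1.78-fold at 28 d, and the TRiC subunit Cct8 was 1.53-fold to 1.71-fold higher in all 4 libraries. Of 17 tested endoplasmic reticulum genes, 4 were higher and 0 lower at 7 d, 0 and 5 at 14 d, 0 and 1 at 28 d and 2 and 4 at 60 d, with Ddit3 lowest at 14 d (0.31 of control). The 8 TRiC genes gave 1 higher and 0 lower in each library, the 13 cofactors 0 and 0, 1 and 2, 1 and 1, and 0 and 1, and the 8 J-domain genes 1 and 0, 1 and 2, 1 and 1, and 0 and 1 from 7 d to 60 d. The 4 Hsp70 and Hsp110 genes gave 0 higher and 1 lower in each library, and Hsbp1 was not past the fold. The 3-unit heat shock element stood in the promoter windows of Chordc1, Cct4 and Serpinh1 and of no other list gene that had a window. Not every list gene had one. Windows were held for 4 of the 7 listed small heat shock proteins and 9 of the 13 listed J-domain genes, for example.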

How the data were processed

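The deposited values are raw counts of UMIs per barcode and gene, with no normalization. Per the labels and the submitters' processing notes, the authors used the droplet-based 3′ chemistry of 10x Genomics, Cell Ranger 5.0.0 and build Rnor_6.0, and the notes also name STAR and Seurat 3.1.1. Rows with the same symbol were summed (2753 of 32623 rows). A barcode had to hold 500 or more UMIs of 300 or more genes, no more than 20% of them mitochondrial (13 genes). A class score was the mean over its markers of log(1 + UMIs per 10000), scaled by the mean of the 100 highest cells. A cell took a class with a scaled score of at least 0.2, at least 2 markers and no other class above 0.5 of that score. This margin can also leave out mixed droplets. No doublet caller was run, and how many mixed droplets remained was not tested. Markers of 12 classes were used (87 of 91 found). Classes with at least 50 cells in a library were analysed.

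UMIs were summed per class and library and given as CPM with exact Poisson 95% intervals. Ratios carry exact conditional binomial intervals, ratios within a pair Clopper-Pearson intervals, and changes of such a ratio an approximate log-normal interval. The background counts all genes with at least 20 CPM over the pooled libraries of a class under the same 1.5-fold rule. The rule was also run on simulated Poisson counts drawn from pooled fibroblast profiles with known changes. These counts hold no variation between animals or libraries, so they say nothing about false calls from that source. The carry-over bound adds, for fibroblasts and keratinocytes, their level of the gene times the level of their markers in the class over that in their own cells. RNA of other classes does not enter it. Patterns were compared on log2(CPM + 10) for genes with at least 50 CPM in at least 10 combinations of class and library. Depth limits precision, and intervals cover counting error only. Python 3.11.15, numpy 2.4.6, scipy 1.17.1 and pandas 2.3.3 were used.

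Named genes are the 10 members, the highest and lowest gene of each of 8 lists in fibroblasts and keratinocytes of each library, 4 immediate early genes, and the 5 genes most like Hspa1b and Hspa8. Of these, 1 result under this rule is not reported here. Members, lists and tests were chosen with earlier results of these data known. The planned comparison of protein sequences was not run. Promoters are of build GRCr8, and no coordinates were moved between builds.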

Additional observations from a re-analysis of the deposited data

Results flagged for a closer look

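In the same library, 3 ratios to control went past the fold upward in fibroblasts and downward in keratinocytes. Hspa1b at 14 d was 1.64-fold of control in fibroblasts and 0.263 of control in keratinocytes, a difference of 2.64 on the log2 scale, and at 28 d it was 3.08-fold against 0.597, a difference of 2.37. Dnajb1 at 7 d was 1.55-fold of control in fibroblasts (468 against 302 CPM) and 0.652 in keratinocytes (733 against 1124 CPM), a difference of 1.24. With 1 library per group, these differences were not tested. The summed immediate early genes differed in direction in the same way at 14 d and 28 d.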

How the results depend on the processing

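No ratio past the fold changed direction under any alternative run (up to 102 such ratios per alternative). Sizes did move, with 18 recomputed log2 ratios shifted by over 1.5 times, 0 of them in fibroblasts and 3, all of Hsph1, in keratinocytes. Equal weight per cell took Hsph1 in keratinocytes from -1.01 to -0.19 at 14 d and from -0.11 to 0.81 at 28 d, and Hspa1b in Schwann cells at 60 d from 1.59 to 0.96. No margin took Hspa1b in mononuclear phagocytes at 28 d from 2.11 to 1.38, and at most 10% mitochondrial UMIs took it at 14 d from -0.51 to -1.55. In the same class at 60 d, no margin took Dnajb1 from 2.04 to 1.38 and Hspb1 from 2.17 to 1.33. Counts within 1.5 times of those reported are not repeated. For keratinocytes at 60 d, 1 member in place of 2 was lower with a median size factor, with mitochondrial, ribosomal and listed genes left out of the scaling, with equal weight per cell, with a stricter margin (second score at most 0.25), at 2-fold and in basal cells, and 4 were lower in suprabasal cells. For keratinocytes at 7 d, 1 in place of 2 was higher with the stricter margin and at 2-fold, and 0 in place of 1 lower with equal weight and at 2-fold. For keratinocytes at 28 d, 1 was higher with equal weight and 2 were lower at 2-fold. In fibroblasts 2-fold left 2 higher at 7 d, 0 at 14 d, 1 lower at 28 d and 0 at 60 d. Hspa1b UMIs per 100 Hspa8 UMIs left their counting interval at most 10% mitochondrial UMIs in keratinocytes (86.2, 17.7, 56.4 and 67.5 at 7, 14, 28 and 60 d) and fibroblasts (142 at 7 d), with the stricter margin in keratinocytes (79.8 in control, 72.2 at 7 d, 68.3 at 60 d) and fibroblasts (56.7 in control, 152 at 7 d), and at 2000 UMIs per cell in fibroblasts (143 at 7 d). Under the stricter margin keratinocytes at 7 d lay below control in place of above it. Thinning to 2000 UMIs made the gain in the share of fibroblasts with Hspa1b 26.4 points at 7 d (30.0 at 1000 UMIs) and 24.6 at 28 d (29.2). The causes were not tested. Leaving out the 60 d or the 14 d library, chosen after seeing the data, left the counts of higher comparisons for Hspa1b and Hsph1 within 1.5 times. Levels near 10 to 50 CPM, as for Hspe1 in small classes, rest on few UMIs. No paired analysis was possible because each group holds 1 library.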

Other observations

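Cells of 2 further classes had no control library of at least 50 cells and so no ratio. Cells gated by the myoblast markers, 93 at 7 d and 66 at 60 d, held 4117 and 4776 CPM of Hspa1b, near the level of fibroblasts in those libraries, and 192 and 342 Hspa1b UMIs per 100 Hspa8 UMIs. Their leading genes include Lpl, Cpa1, Gpx3 and Dpt beside the markers, and their Hspb1 stood at 2132 and 4583 CPM. Neutrophils, 55 at 14 d and 55 at 28 d, held 57.1 and 232 CPM of Hspa1b and 324 and 795 CPM of Hsp90ab1, the lowest of all classes, and the carry-over bound for Hspa1b came to 35.8% and 50.2% of the level.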
